A study of Mus musculus with 24 samples.

Results

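The Zfp genes are the mouse genes named as zinc finger proteins by a number, and 226 of them had a probe with a single symbol, of 13840 genes so named, on the Applied Biosystems Mouse Genome Survey arrays used here. The genes described below are the 180 whose brightest probe had a mean quantile-normalized signal over the 12 whole-brain arrays above the median of all 33012 probes, a threshold of 1407. They were chosen by that measured level, and 46 Zfp genes fell below it. Just inside the threshold were Zfp879 with a mean signal of 1418 and Zfp524 with 1414, and just outside were Zfp574 with 1367 and Zfp595 with 1357. Of the 180 genes, 131 were also above the corresponding liver threshold of 416 and were tested in liver.

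Total RNA of whole brain and of liver came from male mice, 12 weeks old, in 4 groups of 3 mice per tissue, each on a one-colour array of its own. Acads-/- mice on HF diet, Acads-/- mice on LF diet, Acads+/+ mice on HF diet and Acads+/+ mice on LF diet were compared after 2 days on the diet (D12331 for HF and D12329 for LF), and all had been raised on chow before. Acads-/- mice are of the BALB/cByJ strain, which lacks functional short-chain acyl-CoA dehydrogenase, the mitochondrial enzyme that starts beta-oxidation of butyrate-length acyl chains, and Acads+/+ mice are of the BALB/cByKZ strain. Genotype and strain therefore cannot be told apart in any comparison. Whole brain mixes many regions, and in bulk tissue fewer cells of a type cannot be told apart from less RNA per cell.

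Most Zfp proteins carry C2H2 zinc fingers, short loops held by a zinc ion that read a few bases of DNA each, and arrays of them bind long sequences. Many also carry a KRAB domain, which recruits Trim28 (KAP1) and with it the histone methyltransferase Setdb1, heterochromatin proteins and the NuRD remodelling complex to silence retroelements and imprinted loci. KRAB zinc finger genes have multiplied by tandem duplication, so that many lie side by side, and closely related copies may share sequence under 1 probe. A few genes with a Zfp name are no DNA-binding repressors: the CCCH proteins of the Zfp36 family bind AU-rich elements of mRNAs and speed their decay.

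Promoters are shown for 5 of the genes with the largest diet differences in Acads+/+ brain, since genes that moved together can be set beside each other. Zfp101, Zfp317 and Zfp473 among them passed the signal threshold only through the group where they were higher, so their differences follow in part from how they were chosen. Here and below, passing only through a group means that the mean signal over the arrays of the other groups was not above the threshold. RefSeq promoters (GRCm38.p6) matched 149 of the 180 genes, with the outermost start taken per gene, and the 250 bases before each start were searched on both strands for GGGCGG (the GC box), for CCAAT (the CCAAT box), for CCGGAA (an ETS core), for TATAAA (the TATA box) and for CACGTG (the E box). CCGGAA was found in 28.9% of the 149 promoters, in 12.3% of all 27025 promoters and in 20.7% of the 7146 promoters of genes tested in brain. CCAAT was found in 46.3% of the Zfp promoters, 34.5% of all promoters and 36.5% of those of tested genes, CACGTG in 8.1%, 6.0% and 8.6%, and TATAAA in 6.0%, 13.0% and 7.2%. GGGCGG was found in 40.3% of the Zfp promoters, in 8907 of the 27025 promoters in all and in 57.5% of those of tested genes. The median number of CpG dinucleotides was 12.0 in the Zfp promoters, 6.0 in all promoters and 15.0 in those of tested genes. The stretches below are the last 120 bases before the start, 5′ to 3′, with a match in capitals, and no 2 matches overlap in them. Zfp467 (chr6:48445091-48445210, minus strand) and Zfp473 (chr7:44748618-44748737, minus strand) were lower in Acads+/+ brain on HF diet, and Zfp101 (chr17:33394638-33394757, minus strand), Zfp317 (chr9:19621971-19622090, plus strand) and Zfp74 (chr7:29954066-29954185, minus strand) were higher. Capitals mark a GC box in Zfp467, an ETS core on the other strand in Zfp473, a CCAAT box in Zfp101 and a TATA box in Zfp317. The stretch of Zfp74 holds none of the motifs searched.
Zfp467: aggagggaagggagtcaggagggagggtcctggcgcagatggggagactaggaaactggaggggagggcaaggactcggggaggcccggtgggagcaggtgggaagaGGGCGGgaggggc
Zfp473: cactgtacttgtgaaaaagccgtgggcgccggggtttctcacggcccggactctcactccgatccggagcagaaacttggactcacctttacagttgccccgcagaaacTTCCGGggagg
Zfp101: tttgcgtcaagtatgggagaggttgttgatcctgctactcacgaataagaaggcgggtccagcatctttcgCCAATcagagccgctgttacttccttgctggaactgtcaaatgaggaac
Zfp317: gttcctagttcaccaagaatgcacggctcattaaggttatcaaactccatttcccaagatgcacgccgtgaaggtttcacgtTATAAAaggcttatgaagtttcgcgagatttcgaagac
Zfp74: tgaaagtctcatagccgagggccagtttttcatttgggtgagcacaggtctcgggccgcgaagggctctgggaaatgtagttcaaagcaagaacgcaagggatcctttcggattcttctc

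The brain arrays followed their labels for Acads itself. Its log2 signal in brain was 7.90 to 10.02 on the 6 Acads-/- arrays and 9.87 to 11.92 on the 6 Acads+/+ arrays, with no overlap between genotypes within either diet. In liver the genotypes overlapped on both diets. Acads was at 7.54 to 10.03 in Acads-/- and 9.67 to 11.39 in Acads+/+ livers on HF diet. On LF diet it was at 7.96 to 9.69 and 8.76 to 10.50. The liver differences of -1.68 on HF and -1.28 on LF diet were not called. Stmn2, a neuronal gene, was at 19.32 to 19.76 on the brain arrays and 7.27 to 9.51 on the liver arrays. Alb, which encodes albumin, was at 18.45 to 20.12 in liver and at 9.59 to 16.27 in brain. Hepatocyte genes were raised on single HF brain arrays: Alb reached 14.66 in Acads-/- HF and 16.27 in Acads+/+ HF brain, against at most 12.80 on LF arrays, and Cyp2e1 reached 15.01 and 15.81, against at most 12.97. None of the 4 hepatocyte genes tested was called between diets in Acads+/+ brain or between genotypes on HF diet. The 3 Acads+/+ HF brain arrays stood apart from the other 9, and 17.5% of all 16506 tested probes were higher and 17.4% lower in Acads-/- than in Acads+/+ brain on HF diet. Each result on those 3 arrays is therefore set below against comparisons that do not use them. Cell type markers moved on the same arrays. Of 3 neuronal genes tested, Snap25 and Syt1 were lower in Acads+/+ brain on HF diet than on LF diet, with log2 differences of -2.17 and -0.90 (adjusted p = 0.0141 and 0.0248), and Stmn2 had -0.03. Snap25 was at 8.74 to 10.24 in Acads+/+ HF brains, against 11.49 to 12.21 in Acads+/+ LF brains. Both microglial genes tested, C1qa and Aif1, were lower by diet as well (-1.11 and -1.93). Of 3 blood genes, Hba-a1 and Pf4 were lower (-1.76 and -3.67) and Alas2 was higher (1.02). Of 3 oligodendrocyte genes the myelin gene Mbp was higher by 1.43, and of 2 astrocyte genes none was called. Their part in the Zfp results was not tested. The pituitary gene Gh reached 19.84 on 1 Acads-/- LF array and 20.02 on 1 Acads+/+ LF array, against at most 10.78 on the other 10, and it was not called in any brain comparison.

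On the Acads+/+ HF brain arrays the Zfp genes as a set stood higher than on the other arrays. Measured against each gene's own mean over the 12 arrays, the median of the 180 genes was 0.14, 0.36 and 0.39 on the log2 scale on the 3 Acads+/+ HF arrays and lay between -0.18 and 0.03 on the other 9. The ranges of these 2 sets of medians did not overlap. All tested probes had medians of 0.07, 0.09 and 0.12 on the same 3 arrays and between -0.03 and 0.03 on the other 9. Those ranges did not overlap either. On array 18022, which had the highest median, 76 of the 180 genes had their highest value of all 12 arrays.

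**Figure D1:**
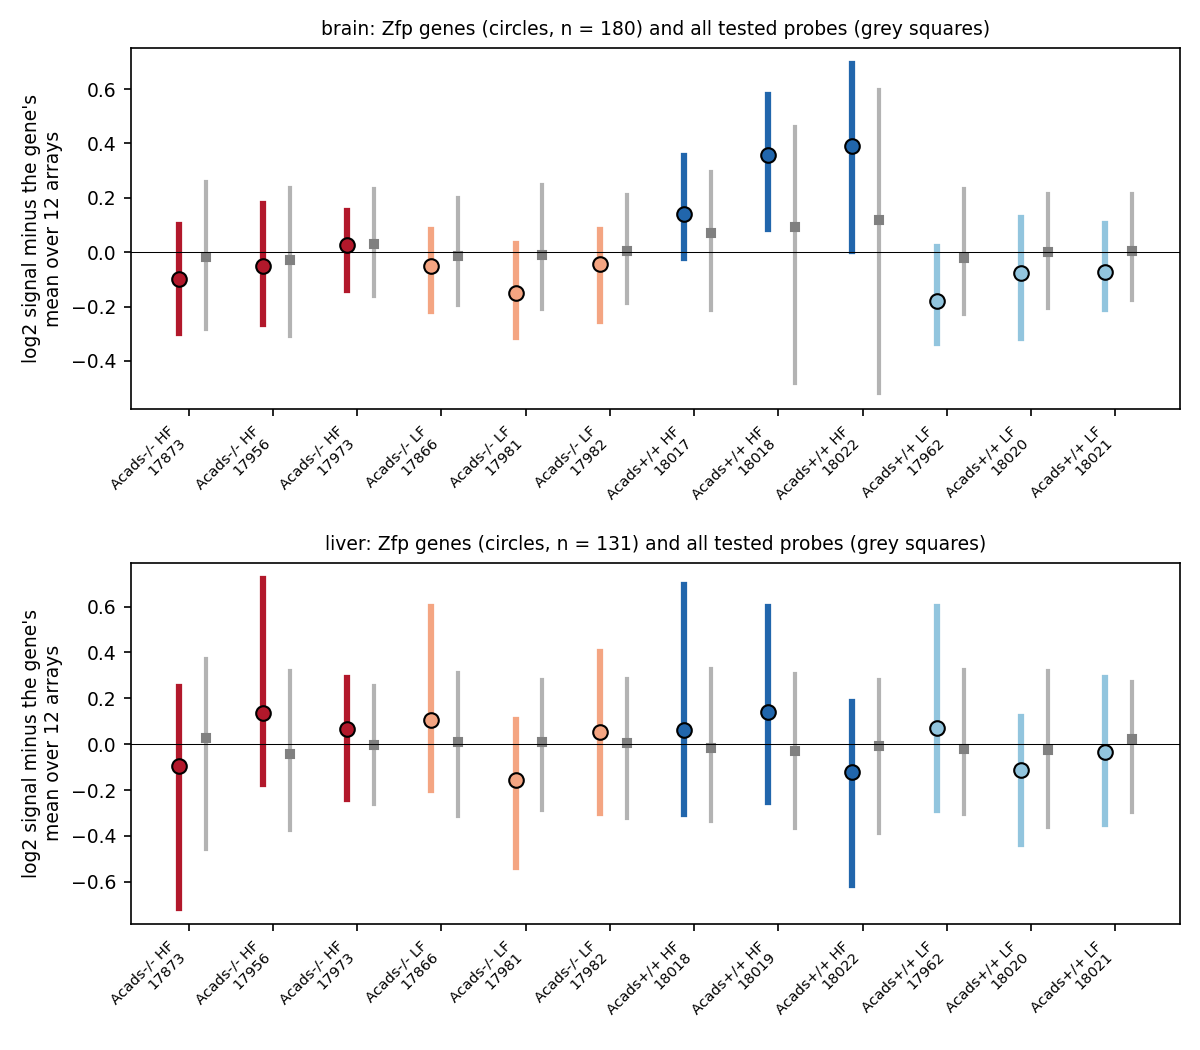
Median (circle) and middle 50% (bar) of the log2 signal of Zfp genes on each array, relative to each gene's mean over the 12 arrays of the tissue, with all tested probes as grey squares and bars. In brain the 3 Acads+/+ HF arrays lie at 0.14 to 0.39 and the others at -0.18 to 0.03, and in liver no group stands apart.

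Between diets in Acads+/+ brain, 38 of the 180 Zfp genes were higher and 10 were lower on HF than on LF diet, a call asking for 1.6-fold or more at an adjusted p below 0.05. That is 21.1% higher and 5.56% lower, beside 15.5% higher and 17.3% lower of all tested probes. The median log2 difference was 0.40 over the 180 genes and 0.12 over all probes, and 145 of the 180 differences were positive. Most of all tested probes were positive too, as their median implies. The share called higher was 5.6 percentage points above the background, and fewer Zfp genes than probes in general were called lower. Leaving out array 18022 brought the count of higher genes to 20, with 9.4% of all probes, so this array carried much of the count. With the trend of signal with genomic span removed from each array, 21 were higher, with 9.72% of all probes.

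Between genotypes on HF diet, 9 of the 180 genes were higher and 37 were lower in Acads-/- than in Acads+/+ brain, which is 5.0% and 20.6%. The background was 17.5% higher and 17.4% lower. The median was -0.30 over the Zfp genes and -0.13 over all probes, and 139 of the 180 differences were negative. Most of all tested probes were negative too, as their median implies. This comparison uses the same 3 Acads+/+ HF arrays as the diet comparison in Acads+/+ brain, so the values of both are given side by side below and are not independent of each other. Without array 18022 the count of lower genes was 22, with 11.6% of all probes, and with the span trend removed it was 19, with 13% of all probes.

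The genes that rose on HF diet in Acads+/+ brain were led by genes of little known function. Zfp74 had log2 signals of 9.26, 10.32 and 11.22 in Acads-/- HF and 11.19, 11.24 and 11.16 in Acads-/- LF brains, and 11.71, 12.26 and 12.84 in Acads+/+ HF and 10.62, 10.99 and 10.50 in Acads+/+ LF brains. The Acads+/+ HF arrays lay above all other 9. On HF diet the genotypes differed by -2.0 (standard error 0.42, adjusted p = 0.00336), the most negative value of the 180. The diets differed by 1.56 in Acads+/+ mice (adjusted p = 0.0123). Zfp101 had the largest positive diet difference of the set, but it passed the signal threshold of 1407 only through the Acads+/+ HF arrays. Its mean signal was 1193 in Acads-/- HF, 1051 in Acads-/- LF, 3511 in Acads+/+ HF and 1039 in Acads+/+ LF brains, so its differences follow in part from how it was chosen. In all, 5 of the 180 genes passed only through the Acads+/+ HF arrays, Zfp101 and Zfp317 among them. Zfp473 passed only through the Acads+/+ LF arrays, and Zfp385c fell below the threshold without either the Acads-/- HF or the Acads+/+ LF arrays. The signals of Zfp101 were 11.43, 11.53 and 12.23 in Acads+/+ HF brains, against 10.11, 9.26 and 10.45 in Acads+/+ LF brains. The difference was 1.79 with a standard error of 0.49 (adjusted p = 0.0141). In the HF comparison Zfp101 had 8.97, 10.22 and 10.88 in Acads-/- brains, and the difference from Acads+/+ brains was -1.71 (adjusted p = 0.0163). Neither the Acads-/- HF nor the Acads+/+ LF arrays of Zfp101 reached the Acads+/+ HF arrays. Without Acads+/+ HF array 18022 the diet calls of Zfp74 and Zfp101 and the genotype call of Zfp101 were lost, and Zfp101 also lost the first without Acads+/+ LF array 18020 and the second without Acads-/- HF array 17873.

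Zfp317 had 11.28, 11.58 and 11.78 in Acads+/+ HF brains, against 9.15, 10.16 and 10.25 in Acads+/+ LF brains, a difference of 1.69 (standard error 0.39, adjusted p = 0.00597). It passed the signal threshold only through these Acads+/+ HF arrays, so its differences follow in part from how it was chosen. Its mean signals of 1621 in Acads-/- HF and 1605 in Acads-/- LF brains were above the threshold of 1407, and that of 976 in Acads+/+ LF brains was below it. In Acads-/- HF brains it had 11.27, 10.54 and 9.83, and the genotype difference of -1.0 was not called (adjusted p = 0.0541). Zfp871 behaved likewise, with a diet difference of 1.64 in Acads+/+ brain (adjusted p = 0.0101) and a genotype difference on HF diet of -0.69 (adjusted p = 0.200). Zfp661 was called for genotype alone: it had 9.27, 10.63 and 10.11 in Acads-/- HF brains, against 11.58, 11.11 and 11.65 in Acads+/+ HF brains, a difference of -1.44 (adjusted p = 0.0357). Its Acads+/+ LF arrays were spread from 10.25 to 12.28, and its diet difference in Acads+/+ mice was 0.42 (adjusted p = 0.507). The genotype call was lost in 8 of 25 alternatives, among them the omission of any one Acads+/+ HF array or of Acads-/- HF array 17873 or 17973.

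Zfp706 encodes a short zinc finger protein that in mouse embryonic stem cells takes part in the exit from self-renewal. It had 17.19, 17.40 and 17.27 in Acads-/- HF and 17.71, 17.35 and 17.23 in Acads-/- LF brains, and 18.20, 18.61 and 19.21 in Acads+/+ HF and 17.05, 17.05 and 17.36 in Acads+/+ LF brains. All 3 Acads+/+ HF arrays lay above the other 9, which spanned less than 0.7 on the log2 scale. The genotype difference on HF diet was -1.39, with a standard error of 0.24 (adjusted p = 0.00117). The diet difference in Acads+/+ mice was 1.52 (adjusted p = 0.000872). Zfp410, whose human counterpart activates the gene for the NuRD remodeller CHD4, had a diet difference of 1.25 in Acads+/+ brain (adjusted p = 0.0202) and a genotype difference of -1.0 on HF diet (adjusted p = 0.0463), and it is named here after its values were seen.

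**Figure D2:**
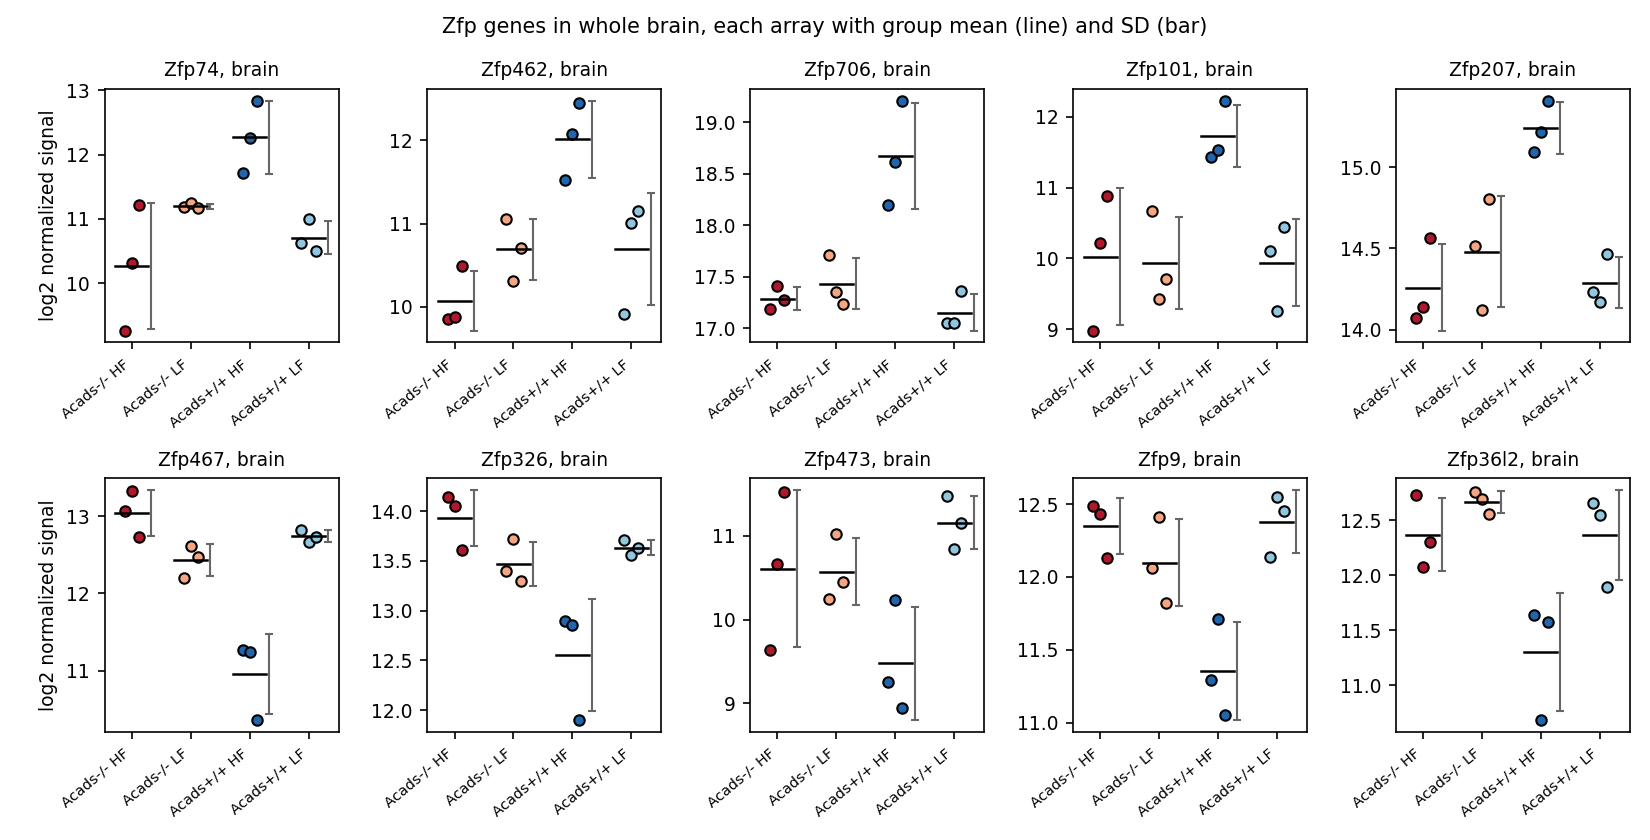
Log2 normalized signal of 10 Zfp genes in whole brain by group, with each array as a point, the group mean as a line and the SD as a bar (n = 3 arrays a group). In the upper row the Acads+/+ HF arrays lie above the other groups and in the lower row the group mean of Acads+/+ HF lies below them.

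The genes that fell on HF diet in Acads+/+ brain were fewer, and Zfp467 was the first among them. Zfp467 is a nuclear zinc finger protein known in mouse marrow for favouring adipocyte over osteoblast formation. It had 13.07, 13.33 and 12.73 in Acads-/- HF and 12.21, 12.62 and 12.48 in Acads-/- LF brains, and 11.27, 11.24 and 10.36 in Acads+/+ HF and 12.83, 12.67 and 12.73 in Acads+/+ LF brains. The 3 Acads+/+ HF arrays were the 3 lowest. Genotypes differed by 2.09 on HF diet, with a standard error of 0.25 (adjusted p = 0.000225). Diets differed by -1.79 in Acads+/+ mice (adjusted p = 0.000492). Both values were the farthest from 0 in their direction among the 180 genes. In Acads-/- mice the diet difference was 0.61 (adjusted p = 0.484).

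Zfp473, the mouse counterpart of a U7 snRNP-binding protein of histone pre-mRNA processing, had 9.26, 10.23 and 8.94 in Acads+/+ HF brains, against 11.47, 10.84 and 11.15 in Acads+/+ LF brains. The groups did not overlap, and the difference was -1.68 (standard error 0.45, adjusted p = 0.0127), a call lost without Acads+/+ HF array 18022. The gene passed the signal threshold only through the Acads+/+ LF arrays, so this difference follows in part from how it was chosen. Its mean signals of 1783 in Acads-/- HF and 1563 in Acads-/- LF brains were above the threshold of 1407, and that of 769 in Acads+/+ HF brains was below it. Its genotype difference on HF diet, 1.13, was not called (adjusted p = 0.0604). Zfp326, part of the DBIRD complex that links transcript elongation to alternative splicing, had 14.14, 14.05 and 13.61 in Acads-/- HF brains, against 12.89, 12.86 and 11.90 in Acads+/+ HF brains, and 13.71, 13.56 and 13.63 in Acads+/+ LF brains. The genotypes differed by 1.38 on HF diet, with a standard error of 0.26 (adjusted p = 0.00184). The diets differed by -1.08 in Acads+/+ mice (adjusted p = 0.00710).

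Zfp709 was called in the same way on its brighter probe, with 1.54 between genotypes on HF diet (adjusted p = 0.0103) and -1.55 between diets in Acads+/+ mice (adjusted p = 0.0106). A second probe of the gene, below the signal threshold, ran the other way, with -1.84 and 1.70 in the same comparisons, so no direction is given for Zfp709. Most others of the 10 genes with more than 1 probe also differed between probes. Diet differences in Acads+/+ mice were 0.51 and 1.93 for Zfp655, 1.02 and 0.05 for Zfp60 and 0.60 and 0.03 for Zfp148. They were 0.28 and 0.74 for Zfp106, 0.01 and -0.435 for Zfp692 and 0.61 and -0.49 for Zfp658, whose second probe was below the signal threshold. The probes of Zfp354c, Zfp128 and Zfp27 lay closer for diet. Zfp9 had genotype and diet differences of 1.00 and -1.03 (adjusted p = 0.00389 and 0.00380), and Zfp131, a BTB-domain zinc finger gene, had 0.89 and -0.89 (adjusted p = 0.00260 and 0.00299). Zfp82 and Zfp385c were called higher in Acads-/- brain on HF diet with differences of 1.36 and 1.23 (adjusted p = 0.0483 and 0.0257). Zfp82 rested on Acads+/+ HF array 18018, at 8.30 against 10.37 and 10.69 on the other arrays of that group, and its call was lost in 15 of 25 alternatives. That of Zfp385c was lost in 7 of 25, among them the omission of Acads+/+ HF array 18018 or 18022 or of Acads-/- HF array 17956 or 17973. Zfp385c fell below the signal threshold without the Acads-/- HF arrays, so its difference follows in part from how it was chosen.

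The test of whether diet acted differently in the 2 genotypes, the interaction, called 6 of the 180 genes higher and 20 lower, that is, with a larger or a smaller HF minus LF difference in Acads-/- than in Acads+/+ brain. The background was 12.1% higher and 10.6% lower, against 3.33% and 11.1% of the Zfp genes, so the lower share was near the background. The median interaction was -0.39 over the Zfp genes and -0.14 over all probes. Zfp74 had the lowest value, -2.50 (adjusted p = 0.0142), and Zfp462 (-1.94, adjusted p = 0.0197), Zfp317 (-1.75, adjusted p = 0.0409), Zfp706 (-1.67, adjusted p = 0.00707) and Zfp729a (-1.34, adjusted p = 0.0144) followed it. Zfp467 had the highest, 2.40 (adjusted p = 0.00246), followed by the brighter probe of Zfp709 (2.03), Zfp326 (1.55, adjusted p = 0.0137), Zfp9 (1.28, adjusted p = 0.0142) and Zfp131 (1.02, adjusted p = 0.0162). The call of Zfp317 was lost in 10 of 22 alternatives, among them 7 omissions of a single array and the replicate block (adjusted p = 0.052). Zfp317 passed the signal threshold only through the Acads+/+ HF arrays, so its interaction follows in part from how it was chosen. That of Zfp709 was lost in 7 of 22, with 5 single-array omissions among them, and that of Zfp462 without Acads-/- LF array 17866. The counts depended on the probes tested: with all 33012 probes of the array, 2 genes were higher and 4 lower.

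**Figure D3:**
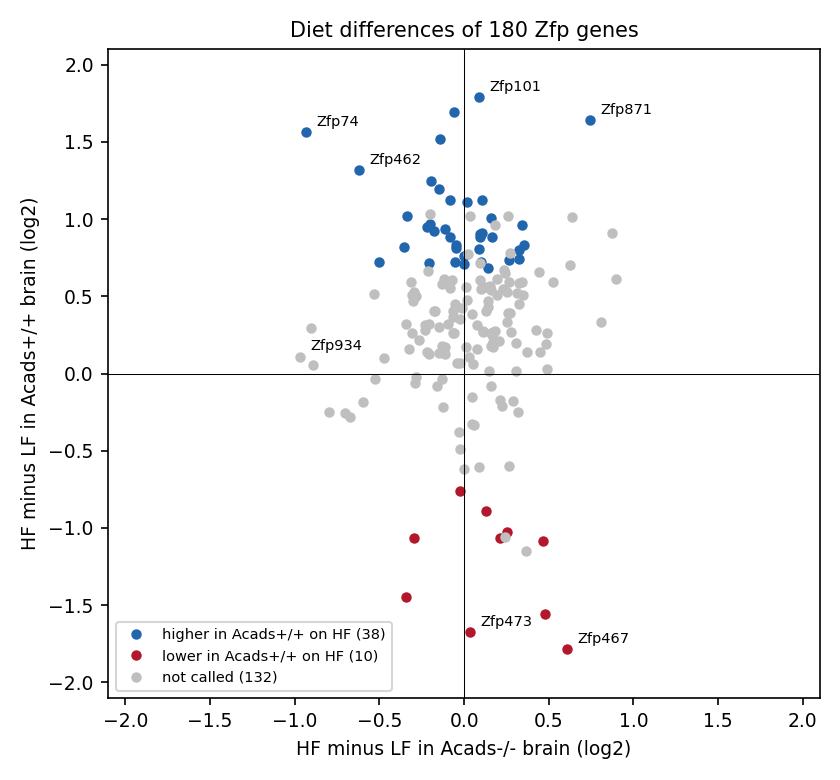
HF minus LF difference of each of the 180 Zfp genes in Acads-/- brain (x axis, log2) and in Acads+/+ brain (y axis, log2), which use different arrays; colours mark the 38 higher and 10 lower genes called in Acads+/+ brain. The points spread along the y axis and none was called on the x axis.

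In the 3 comparisons without the Acads+/+ HF arrays, no Zfp gene was called by limma. Between genotypes on LF diet 0 of 180 were called (background 0.0182% higher and 0% lower, median 0.00). At an unadjusted p under 0.05 with the same fold change 4 were higher and 0 lower, beside 1.35% and 0.618% of all probes. Between diets in Acads-/- brain 0 of 180 were called (background 0% in either direction, median 0.05). At an unadjusted p under 0.05 there were 1 higher and 4 lower, beside 1.08% and 3.78% of all probes. Between Acads-/- HF and Acads+/+ LF brain 0 of 180 were called (background 0.0182% higher and 0.0121% lower, median 0.02). There were 3 in each direction at an unadjusted p, beside 1.22% and 1.93% of all probes. The interquartile range of the differences between genotypes on LF diet ran from -0.15 to 0.14, against -0.69 to -0.03 on HF diet.

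Of the genes nearest to a call there, 4, picked out after their values were seen, were high in the Acads-/- LF group. Zfp934 had 11.95, 12.06 and 12.90 in Acads-/- HF and 13.59, 13.19 and 13.04 in Acads-/- LF brains, and 12.62, 12.40 and 12.77 in Acads+/+ HF and 12.65, 12.10 and 12.70 in Acads+/+ LF brains. The Acads-/- LF arrays were the 3 highest of the 12. Its diet difference in Acads-/- mice was -0.97 (unadjusted p = 0.00393, adjusted p = 0.435). Zfp975, Zfp788 and Zfp710 were also highest on Acads-/- LF array 17866 (15.92, 13.88 and 13.25), with diet differences in Acads-/- mice of -0.80, -0.67 and -0.70, none of them called. Whether these 4 probes share sequence was not tested.

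By role, 14 of the 23 genes listed for known functions were among the 180. Of the mRNA-decay proteins, Zfp36l2 was the one that moved, with 12.73, 12.08 and 12.30 in Acads-/- HF brains, against 11.64, 10.68 and 11.57 in Acads+/+ HF and 12.65, 12.55 and 11.89 in Acads+/+ LF brains. Genotypes differed by 1.07 on HF diet (adjusted p = 0.0111). Diets differed by -1.06 in Acads+/+ mice (adjusted p = 0.0122). With the span trend removed neither passed, and without Acads+/+ LF array 17962 the diet difference was not called. Zfp36, which encodes tristetraprolin, had -0.10 and -0.04 in these comparisons and Zfp36l1 had 0.27 and -0.17, none called.

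Among genes of neural development, Zfp462 and Zfp365 were higher in Acads+/+ HF brain. Zfp462, whose loss in humans causes a developmental disorder, had 9.85, 9.87 and 10.48 in Acads-/- HF and 11.05, 10.31 and 10.71 in Acads-/- LF brains, and 11.52, 12.07 and 12.44 in Acads+/+ HF and 9.92, 11.01 and 11.15 in Acads+/+ LF brains. The genotypes differed by -1.94 on HF diet, with a standard error of 0.35 (adjusted p = 0.00164). The diets differed by 1.32 in Acads+/+ mice (adjusted p = 0.0123), and without array 18022 or with the span trend removed the diet difference was not called. Zfp365, a coiled-coil protein of neurons that binds DISC1, had 14.60, 14.55 and 14.05 in Acads-/- HF brains, against 15.01, 15.47 and 15.90 in Acads+/+ HF and 14.31, 14.49 and 14.25 in Acads+/+ LF brains. Its differences were -1.06 and 1.11 (adjusted p = 0.00406 and 0.00372), with no overlap in either comparison. Zfp536, a repressor of neuronal differentiation, was called for diet in Acads+/+ mice (0.80, adjusted p = 0.0443) and lost the call in 11 of 25 alternatives. Zfp423, needed for cerebellar development and for adipocyte commitment, had -0.23 and 0.27 and was not called.

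Of the widely expressed regulators, Zfp207 (BuGZ), a kinetochore and spindle protein that binds Bub3, had 14.07, 14.14 and 14.56 in Acads-/- HF brains, against 15.09, 15.22 and 15.41 in Acads+/+ HF and 14.23, 14.17 and 14.47 in Acads+/+ LF brains. The groups did not overlap. Genotypes differed by -0.98 on HF diet (adjusted p = 0.00299). Diets differed by 0.95 in Acads+/+ mice (adjusted p = 0.00397). Zfp148, a Krüppel-type factor of GC-rich promoters, was called for genotype on HF diet (-0.75, adjusted p = 0.00604), while a second tested probe of the gene had 0.20, and the call was lost in 5 of 26 alternatives, array 18022 left out among them. The RNA-binding protein Zfp106 had -0.68, short of the fold change required, and Zfp281 had -0.27. Zfp809, which silences retroelements through Trim28, had a diet difference of 0.53 in Acads+/+ mice, and Zfp516, an activator of brown-fat genes, had 0.66 (adjusted p = 0.0432 and 0.0122), both below the fold change required.

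Of 15 tested genes of the KRAB co-repressor machinery, 5 were higher and 0 lower on HF than on LF diet in Acads+/+ brain, and 0 were higher and 5 lower in Acads-/- than in Acads+/+ brain on HF diet. Over all probes the shares were 15.5% higher and 17.3% lower by diet and 17.5% higher and 17.4% lower by genotype. The 5 of 15 lay above these shares and the 0 below them, and on lists this short a few genes change a share much. The medians were 0.44 and -0.51, beside 0.12 and -0.13 over all probes. Chd4, the NuRD remodeller, had a group mean of 15.80 in Acads-/- HF brain, against 16.90 in Acads+/+ HF and 15.78 in Acads+/+ LF brain, with differences of -1.09 and 1.12 (adjusted p = 0.000442 and 0.000451). Trim28 itself was called for diet in Acads+/+ mice (0.79, adjusted p = 0.0209) and not for genotype on HF diet (-0.57, adjusted p = 0.0702). Other families named for zinc-binding domains gave mixed counts in Acads+/+ brain by diet: 2 higher and 0 lower of 21 Zbtb genes, 1 and 0 of 8 Zkscan or Zscan genes, 1 and 0 of 13 Klf or Sp genes, 1 and 2 of 7 Zc3h genes, 2 and 0 of 15 Zdhhc genes, 1 and 0 of 3 Zmynd genes, and 12 and 2 of 45 Rnf genes, beside the same 15.5% and 17.3%. The Rnf genes had a median of 0.40, the Zbtb genes 0.39 and the Zkscan or Zscan genes 0.34, beside 0.40 for the Zfp genes. A median of that size was therefore not particular to the Zfp genes. The Zmynd genes had a median of 0.65, the Zdhhc genes 0.16, the Klf or Sp genes -0.07 and the Zc3h genes -0.56.

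Genomic span, the stretch of genome that a gene covers with its introns, was set beside the differences because signals on the Acads+/+ HF arrays ran with it. Spearman's rho between span and the relative signal, over genes and as a description, was 0.04, 0.27 and 0.24 for the Zfp genes and 0.28, 0.43 and 0.41 for all named tested probes on these 3 arrays, while on the other 9 it lay between -0.18 and 0.07 for the Zfp genes and between -0.33 and -0.17 for all. The Zfp genes had a median span of 15.7 kb, against 20.3 kb over all named tested probes. Of the 60 Zfp genes with the shortest spans, up to 12.7 kb, 6 were higher and 3 lower on HF diet in Acads+/+ brain, beside 7.5% and 26.6% of all named probes of such spans. Of the middle 60, 21.7% were higher and 6.7% lower, beside 16.9% and 10.9%. Of the 60 longest, over 20.5 kb, 31.7% were higher and 5.0% lower, beside 28.3% and 6.4%. The share higher thus climbed with span in the Zfp genes and in all genes, while among the shortest spans a smaller share of Zfp genes than of all named probes was lower. Positive diet differences were 44, 51 and 50 of the 60 Zfp genes from short to long spans. Over all named probes of such spans they were 1293 of 3213, 846 of 1327 and 3418 of 4487. Between genotypes on HF diet 20, 10 and 11 of the Zfp genes were positive, beside 1922, 491 and 1112 of those probes.

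**Figure D4:**
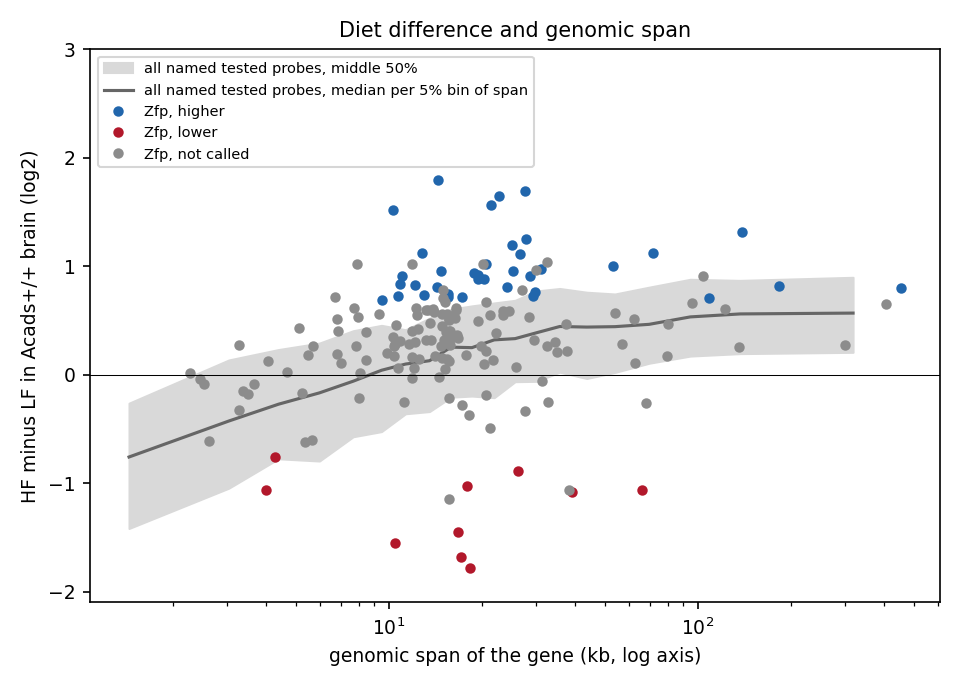
HF minus LF difference in Acads+/+ brain (log2) of the 180 Zfp genes against genomic span (kb, log axis), with the median and the middle 50% of all named tested probes in 20 bins of span. Of the 60 shortest genes 3 (5.0%) were called lower, against 26.6% of all named probes up to the same span limit, which include shorter genes.

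Of the 180 genes, 93 lay next to another Zfp gene in the RefSeq gene order and 87 did not. On HF diet in Acads+/+ brain 17 higher and 4 lower were among the 93, and 21 higher and 6 lower among the 87, with medians of 0.41 and 0.39. These were 18.3% and 4.3% of the 93 and 24.1% and 6.9% of the 87, beside 15.5% and 17.3% of all tested probes. In the run of neighbours that holds Zfp61, Zfp180, Zfp108, Zfp112, Zfp235, Zfp94, Zfp109 and Zfp111, all 8 differences were positive, from 0.07 to 1.12, and 2 were called, a share near the 21.1% of all 180 genes. In the run that holds Zfp74 and Zfp82, 8 of 9 differences were positive, and these 2 genes went opposite ways (1.56 and -1.45). These are the runs with most of the genes described, and over all 12 runs with at least 3 of them 45 of 53 differences were positive, 11 genes were higher and 1 was lower, beside 145 of 180, 38 and 10 over all Zfp genes. In the run of Zfp768, Zfp747 and Zfp764, 1 of 3 differences was positive.

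In liver, none of the 131 Zfp genes tested was called in any of the 6 comparisons. The background was 0.109% of all probes between diets in Acads-/- liver and 0% in each of the other 5. At an unadjusted p under 0.05 with the same fold change, between 4 and 12 Zfp genes passed per comparison, and the lowest adjusted p was 0.157. The 12 were 5 higher and 7 lower between diets in Acads+/+ liver, beside 3.1% and 5.6% of all probes. The 4 were 2 higher and 2 lower between genotypes on LF diet, beside 1.56% and 1.73%. Over the 6 comparisons the shares of all probes ran from 1.56% to 3.7% higher and from 1.73% to 5.6% lower. The medians of the 131 genes lay between -0.02 and 0.03. The residual spread of a probe was wider than in brain, with a median SD of 0.524 against 0.271, so differences of the size seen in brain could be missed.

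Zfp112 stood out among the uncalled genes in liver and is named for that after its values were seen. It had 9.69, 8.84 and 9.21 in Acads-/- HF and 7.83, 7.15 and 7.56 in Acads-/- LF livers, and 8.20, 7.68 and 8.19 in Acads+/+ HF and 9.47, 10.28 and 8.98 in Acads+/+ LF livers, where 7.15 is the floor to which low signals were raised. Acads-/- LF and Acads+/+ HF lay below the threshold of 8.70 on every array, and the gene passed it through the Acads-/- HF and Acads+/+ LF groups, so its differences are given as a description. The HF arrays lay above the LF arrays in Acads-/- liver and below them in Acads+/+ liver. Diets differed by 1.74 in Acads-/- mice and by -1.55 in Acads+/+ mice, and neither was called. In brain the same probe had a diet difference of 0.33 in Acads-/- mice (adjusted p = 0.650). In Acads+/+ mice it was 0.74, and that was called (adjusted p = 0.0214).

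The genes that led in brain were not called in liver. Zfp467 had 11.24, 10.47 and 10.15 in Acads-/- HF livers, against 10.74, 10.07 and 10.78 in Acads+/+ HF livers, a difference of 0.09, and Zfp706 had -0.25. The lowest arrays in liver came from different groups. The median of the Zfp genes relative to their own means was -0.10 on Acads-/- HF array 17873, -0.16 on Acads-/- LF array 17981, -0.12 on Acads+/+ HF array 18022 and -0.11 on Acads+/+ LF array 18020. Zfp281, a GC-rich promoter binding factor, had 11.54 on array 17873, 12.60 on 17981 and 12.33 on 18022, the lowest of its groups, while the other arrays of those groups were at 13.18 to 14.46. Group means in liver thus held differences between arrays of 1 group that were wider than those between groups.

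**Figure D5:**
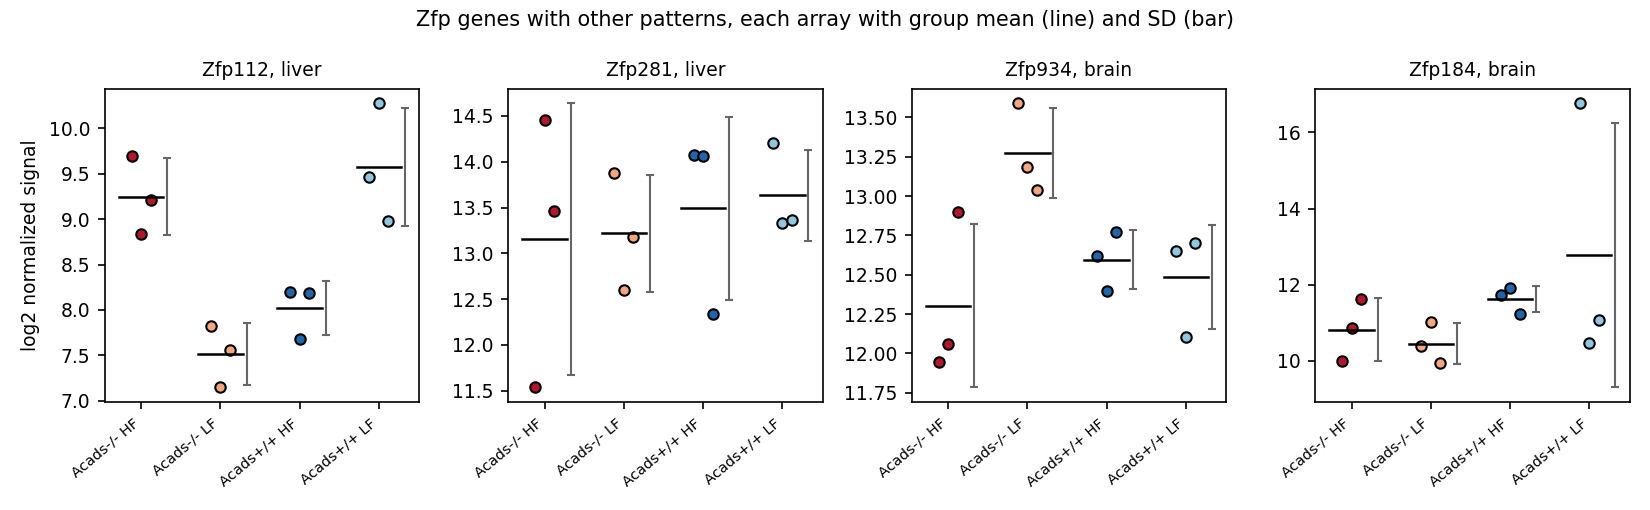
Log2 normalized signal of Zfp112 and Zfp281 in liver and of Zfp934 and Zfp184 in brain by group, with each array as a point, the group mean as a line and the SD as a bar (n = 3 arrays a group). Zfp112 shows opposite diet differences in the 2 genotypes, Zfp281 a spread within groups, Zfp934 its highest values in Acads-/- LF brain, and Zfp184 a single array at 16.77.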

How the data were processed

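The authors extracted assay signal intensities from one-colour chemiluminescent arrays and deposited them per probe and tissue, not normalized between arrays; the deposited log2 values equal the log2 of these intensities after quantile normalization within a tissue. Here, intensities were quantile-normalized over the 12 arrays of a tissue, a floor was set at the 5th percentile (signal 235 in brain, 142 in liver), and values were put on the log2 scale. Fits used the 16506 probes whose mean signal exceeded the median, with limma 3.58.1 (R 4.3.3), 4 groups sharing 1 spread, with Benjamini-Hochberg adjustment over all of them. The deposited signal-to-noise columns went unused here, and the number of arrays limits the precision. Probes were named by the platform annotation (14411 with 1 symbol and 247 with several, which were left out), and a gene is given by its brightest probe. Tissues were normalized separately and tested apart. LF livers were grouped by title and treatment, although 1 other label field calls their diet high-fat. Array columns were matched to groups by their names. The 3 arrays of a group are taken as separate mice. Brain and liver array numbers coincide in 11 cases, and whether these are the same mice is not given in the sources used here, so the tissues are not treated as independent.

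The genes named are, per comparison, the 5 largest differences in each direction among called genes whose groups do not overlap (for the interaction, among all called), role lists taken whole (9 of their 23 genes were not among the genes described), genes next to the threshold, and others said to be chosen after their values were seen. The Zfp genes, the lists and the tests were chosen with earlier results of these data known. Protein domains were not used here. The fit was tested on simulated data. Alternatives were median scaling, an offset of 500, no filter, the 25% of probes of highest signal, the authors' log2 values without and with a replicate block, weights per array, unadjusted p, the methods' t-test, a fit of just the compared groups, removal of the span trend (lowess per array), the main axis within groups as a covariate, no Acads+/+ HF arrays, the mean of a gene's probes, and each array left out.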

Additional observations from a re-analysis of the deposited data

Results flagged for a closer look

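The interaction of diet and genotype in brain was singled out because the HF minus LF difference itself differed between Acads-/- and Acads+/+ mice by the limma test. It called 6 Zfp genes higher and 20 lower of 180, against 12.1% and 10.6% of all probes. Among the named genes, the interaction was 2.40 for Zfp467, 2.03 for the brighter probe of Zfp709, 1.55 for Zfp326, 1.28 for Zfp9 and 1.02 for Zfp131. It was -1.09 for Zfp365, -1.17 for Zfp207, -1.34 for Zfp729a, -1.67 for Zfp706, -1.75 for Zfp317, -1.94 for Zfp462 and -2.50 for Zfp74. Every one of these uses the 3 Acads+/+ HF arrays, and Zfp317 passed the signal threshold only through them. With all 33012 probes tested, Zfp467, Zfp326, Zfp706 and Zfp74 were still called and the other 8 were not. The call of Zfp317 was lost in 10 of 22 alternatives, that of Zfp365 in 10 of 23 and that of Zfp709 in 7 of 22. Groups of 3 arrays are too small for an outlier test, and none was run.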

How the results depend on the processing

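Counts below are given as Zfp genes higher and lower. Unless a share of all probes stands beside a count, the share under that setting is not given here. Such a count does not tell a change in the Zfp genes from a change in all probes. For genotype on HF diet in brain (9 and 37), the 25% of probes of highest signal, with 68 Zfp genes tested, gave 2 and 12, the methods' t-test with adjusted p gave 0 and 0 and with unadjusted p 5 higher, and removal of the span trend gave 19 lower. For diet in Acads+/+ brain (38 and 10), the same settings gave 13 and 3, 8 and 1, 6 lower and 21 higher. For the interaction (6 and 20), unadjusted p gave 10 and 38, beside 16.2% and 16.8% of all probes. No filter gave 2 and 4, the highest 25% 3 and 11, and array weights 12 and 40. For genotype on LF diet (0 and 0), unadjusted p gave 4 higher and the t-test with unadjusted p 3. For diet in Acads-/- brain (0 and 0) these gave 1 and 4, and 1 and 2, and for Acads-/- HF against Acads+/+ LF brain unadjusted p gave 3 and 3. In liver (0 and 0 throughout), unadjusted p gave 5 and 3 for genotype on HF diet, 2 and 2 on LF diet, 3 and 2 for diet in Acads-/- and 5 and 7 in Acads+/+ liver, 3 and 2 for the interaction and 4 and 3 for Acads-/- HF against Acads+/+ LF. The t-test with unadjusted p gave 3 and 1, 1 lower on LF diet, 2 and 2, 2 and 4, and 1 and 2 for the last. The cause was not tested.

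Leaving out 1 array at a time gave 6 to 12 higher and 22 to 46 lower for genotype on HF diet, 20 to 51 higher and 7 to 14 lower for diet in Acads+/+ brain, and 4 to 9 higher and 11 to 33 lower for the interaction. The lowest counts of the first 2 (lower and higher genes) came without Acads+/+ HF array 18022. The share of all probes called fell with that omission too, as given above. Shares under the other omissions are not given, so these ranges do not set the Zfp genes apart from all probes. For the interaction, 33 came without Acads+/+ HF array 18017, 12 without 18018 or Acads+/+ LF array 17962, and 11 without Acads-/- LF array 17866. Without Acads-/- HF array 17973, 3 genes were lower by diet in Acads-/- brain and 2 in Acads-/- HF against Acads+/+ LF brain (range 0 to 3 and 0 to 2). In liver every count stayed 0. No called result reversed its sign in the alternatives run.

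With the replicate block (run on the log2 matrix that the authors deposited), the counts were 9 and 37, 41 and 9, and 6 and 18. Same-numbered samples correlated over 0.1 in 3 of 18 pairs in brain and 5 of 18 in liver. In brain r ran from -0.18 to 0.22 in these pairs and from -0.17 to 0.23 in pairs of unlike number. In liver it ran from -0.30 to 0.29 and from -0.30 to 0.34. No pairing by number was seen, and whether the numbers mark a shared batch was not tested. Median scaling moved the median of all probes by less than 0.1 in these brain comparisons and kept the direction of the Zfp medians (-0.45, 0.45 and -0.47). Of the named calls, the block ended that of the Zfp317 interaction (adjusted p = 0.052) and no other. Signal over background limits genes near the threshold: 5 of the 180 passed it in brain only through the Acads+/+ HF arrays.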

Other observations

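Single arrays set the level of some Zfp genes. In brain, Zfp184 had 16.77 on Acads+/+ LF array 17962, against 10.47 and 11.08 on the other arrays of its group, and lay between 9.95 and 11.91 on the remaining 9 arrays. Zfp608 had 14.27 on Acads-/- HF array 17956, against 11.87 and 11.28 in its group, and Zfp54 had 11.79 on array 17973, 2.65 above the mean of the other 2 arrays of its group. None of these genes was called in a brain comparison. In liver such departures were more frequent: 14 of the 131 genes lay more than 2 below the mean of the other arrays of their group on Acads-/- HF array 17873, and 13 did on Acads+/+ HF array 18022.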
